A study of Rattus with 9 samples.

Results

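VEGF and angiopoietin signaling was followed in the rat bile duct through 10 genes: the receptors Kdr and Flt1 with the coreceptor Nrp1, the receptors Tek and Tie1, the angiopoietins Angpt1 and Angpt2, and the VEGF-family ligands Pgf, Vegfb and Vegfc. They were chosen by gene symbol, and all 10 were found among the 23999 rows of the deposited UMI count tables. A UMI (unique molecular identifier) marks a single captured RNA molecule, so a UMI count is a count of molecules.

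VEGF ligands bind receptor tyrosine kinases on endothelial cells (EC). Kdr carries most of the growth and permeability signal in blood vessels, Flt1 binds ligand tightly and signals weakly, and Nrp1 presents ligand to them. Pgf and Vegfb bind Flt1, whereas Vegfc acts mainly on the lymphatic receptor Flt4 and also on Kdr. Angpt1, made by stromal and mural cells, activates Tek and keeps vessels quiet. Angpt2 is released by endothelium and other vascular cells, often opposes Angpt1 at Tek and is known as a marker of activated endothelium, and Tie1 modulates Tek. The bile duct is fed by a plexus of small vessels that branches from the hepatic artery, which is why its vascular cells are of interest after liver transplantation (LT).

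Single-cell RNA sequencing of rat bile duct gave 9 samples in 3 groups. The sham group held 3 samples. The ctrl group held transplanted rats with ischemic injury, with a single sample from day 1, day 3 and day 7 post-LT each, and the treat group held rats of the same model in which ligation of the splenic and gastric-duodenal arteries had raised arterial flow, sampled on the same days. Strain, sex and age are not given in the labels, nor is it stated if the libraries within a sample represent different rats. Libraries were therefore summed per sample, and p-values measure only the spread between these samples, which differ in day within ctrl and treat.

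The 20 libraries held 14398295 to 109245177 UMIs each. After filters on genes, mitochondrial and hemoglobin UMIs and doublets, 139301 cells remained in 43 clusters, of which 27 were named by marker lists. The members and the other genes of their pathway were left out of the genes used for clustering and of the marker lists. Libraries 2 and 3 of ctrl day 3 stood apart, with 2472 and 3961 barcodes over the hemoglobin limit and only 407 and 321 cells kept, and without them the same counts of members passed the tests, 2 in ctrl against sham and 1 in treat against ctrl. Of 136834 cell barcodes, 2445 occurred in more than 1 library, at most 51 in a pair of libraries.

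The blood EC-like class was 1 cluster of 6791 cells with 14 of 15 listed markers detected, among them Cdh5, Plvap and Vwf. The lymphatic EC-like class was a cluster of 1094 cells with 11 of 12 markers, Prox1 and Lyve1 included. A cluster of 1776 cells had all 13 listed vascular mural markers, but 5 smooth muscle genes (Des, Acta2, Myh11, Tagln and Actg2) and only 2 mural markers (Rgs5 and Cox4i2) were among its 10 leading genes, so it is called the mural cluster here. Fibroblast-like, BEC-like (biliary epithelial cell) and macrophage-like cells numbered 17444, 3064 and 13104. Sums of at least 20 cells were used. This left out ctrl day 3 from the lymphatic EC-like class, with 19 cells, and from the mural cluster, with 3 cells.

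**Figure D1:**
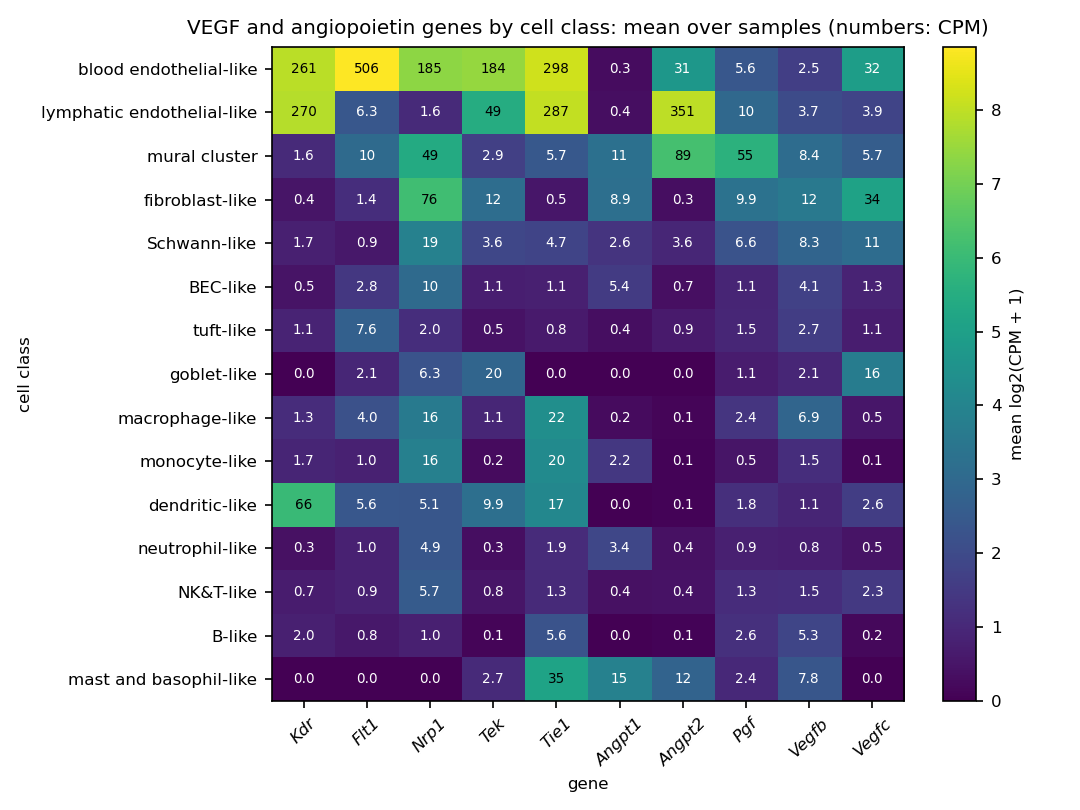
Heat map of the 10 genes (columns) over 15 cell classes (rows). Color gives the mean over samples of log2(CPM + 1), and the printed number is the mean CPM (UMIs of the gene per 1000000 UMIs of the class). Kdr and Tie1 are bright in both endothelial classes, Flt1 is at 506 CPM in blood EC-like cells and at most 10.0 CPM in the other classes, and Angpt2 is brightest in lymphatic EC-like cells.

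Among the 6 classes tested, the mean levels of Kdr, Flt1, Tek, Tie1 and Nrp1 were highest in endothelium, but not all in the same endothelium. Levels are given as CPM (UMIs of a gene per 1000000 UMIs of the summed cells), are compared between cell classes and not between genes, and stand beside the level in empty droplets, which carry free RNA. Kdr was at 261 ± 113 CPM in blood EC-like cells (SD, n = 9) and at 270 ± 140 CPM in lymphatic EC-like cells (SD, n = 8), against 9.95 CPM in empty droplets. These levels did not differ beyond their spread (log2 difference 0.05, higher in blood EC in 5 of 8 samples, adjusted p = 0.828, two-sided exact sign-flip permutation test). Tie1 behaved the same way, at 298 ± 50.5 CPM in blood EC-like cells (SD, n = 9) and 287 ± 123 CPM in lymphatic EC-like cells (SD, n = 8). Its log2 difference was 0.12, with an adjusted p of 0.559 in the exact test.

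Flt1 and Nrp1 separated both kinds of endothelium. Flt1 was at 506 ± 233 CPM in blood EC-like cells (SD, n = 9) and at 6.32 CPM in lymphatic EC-like cells, which is under the 12.3 CPM of empty droplets. The log2 difference between them was 6.51, with blood EC higher in 8 of 8 samples (adjusted p = 0.0136, exact permutation test). Nrp1 was at 185 ± 124 CPM in blood EC-like cells (SD, n = 9) and at 1.6 CPM in lymphatic EC-like cells, a log2 difference of 6.29 (adjusted p = 0.0136, exact permutation test, 8 of 8 samples). Tek was at 184 ± 68 CPM (SD, n = 9) against 48.9 ± 24.1 CPM in lymphatic EC-like cells (SD, n = 8), a log2 difference of 2.03 (adjusted p = 0.0136, exact permutation test, 8 of 8 samples).

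Outside the endothelium, the receptors differed in reach. Of 27172 Nrp1 UMIs in cells, 52.2% were in the 17444 fibroblast-like cells (7643 of 18656 without treat day 1) and 18.9% in blood EC-like cells, whereas blood EC-like cells held 73.7% of Flt1, 64.9% of Tek, 55.3% of Tie1 and 51.0% of Kdr UMIs. The level of Nrp1 was 75.6 ± 28.8 CPM in fibroblast-like cells (SD, n = 9) and 49.2 ± 29.8 CPM in the mural cluster (SD, n = 8), both over the 12.4 CPM of empty droplets. Blood EC-like cells were higher than fibroblast-like cells in 9 of 9 samples by 1.2 on the log2 scale (adjusted p = 0.0136, exact permutation test), whereas the mural cluster and fibroblast-like cells did not differ beyond their spread (adjusted p = 0.0933). Tie1 was at 22.3 CPM in macrophage-like and 19.7 CPM in monocyte-like cells, against 15.8 CPM in empty droplets. These classes held 9.24% and 5.96% of Tie1 UMIs. A Tie1 UMI was seen in 10.1% of macrophage-like cells but in 0.338% of fibroblast-like cells. Free RNA makes up only a part of the UMIs of a cell, and its part in the Tie1 level was not tested. Tek in fibroblast-like cells was at 11.7 CPM, near the 8.35 CPM of empty droplets, yet its samples ranged from 0.87 to 34.3 CPM, with 22.2 CPM in ctrl day 7 and 34.3 CPM in treat day 7. Flt1 outside blood EC-like cells was at most 10.0 CPM, in the mural cluster, and thus under its empty droplets in each of the other classes. Among the other classes, Kdr was over its empty droplets in the dendritic-like class alone, at 65.6 ± 20 CPM with samples from 40.3 to 92.4 CPM (SD, n = 8).

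Among the 6 classes tested, Angpt1, Pgf and Vegfb had their highest means in the mural cluster or fibroblast-like cells, while Vegfc was also endothelial. Angpt2 was highest in lymphatic EC-like cells at 351 ± 320 CPM (SD, n = 8), followed by the mural cluster at 89 ± 52.5 CPM (SD, n = 8) and blood EC-like cells at 31.2 ± 24 CPM (SD, n = 9). Each step of this order was larger than the spread over samples. Lymphatic EC-like cells exceeded the mural cluster by 1.72 on the log2 scale in 8 of 8 samples (adjusted p = 0.0136, exact permutation test), and blood EC-like cells stood at a log2 difference of -1.70 to the mural cluster (adjusted p = 0.0469, exact permutation test, lower in all samples but 1). In fibroblast-like, BEC-like and macrophage-like cells Angpt2 was at 0.262, 0.683 and 0.083 CPM, all under the 4.55 CPM of empty droplets. By share of molecules, 58.8% of the 7304 Angpt2 UMIs in cells were in the 1094 lymphatic EC-like cells, 15.2% in the mural cluster and 14.8% in blood EC-like cells. The first share leaned on treat day 1, which gave 3268 of the 4296 Angpt2 UMIs of lymphatic EC-like cells, and without that sample these cells held 1028 of 3429 Angpt2 UMIs.

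Angpt1, the activating ligand of Tek, was scarce everywhere but had a stromal distribution. It was at 10.6 ± 6.8 CPM in the mural cluster (SD, n = 8) and 8.94 ± 3.47 CPM in fibroblast-like cells (SD, n = 9), which did not differ beyond their spread (adjusted p = 0.991, exact permutation test). Blood EC-like cells were at 0.306 CPM, under the 1.01 CPM of empty droplets, and lower than fibroblast-like cells in 9 of 9 samples (log2 difference -2.93, adjusted p = 0.0136, exact permutation test). Fibroblast-like cells held 1690 of 2429 Angpt1 UMIs, or 69.6%. The highest mean, 14.9 CPM in mast and basophil-like cells, rested on 5 UMIs in 111 cells.

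Pgf was highest in the mural cluster, at 55.1 ± 22.7 CPM (SD, n = 8) against 3.3 CPM in empty droplets. Lymphatic EC-like cells were at 10.0 ± 7.9 CPM (SD, n = 8) and fibroblast-like cells at 9.86 ± 4.93 CPM (SD, n = 9), and the mural cluster was higher than fibroblast-like cells by 2.44 on the log2 scale in 8 of 8 samples (adjusted p = 0.0136, exact permutation test). Vegfc, the lymphatic growth factor, was at 33.7 ± 6.54 CPM in fibroblast-like cells and 31.7 ± 13.2 CPM in blood EC-like cells (SD, n = 9 each), which did not differ beyond their spread (adjusted p = 0.33, exact permutation test). In the lymphatic EC-like cells it was at 3.91 CPM, under the 6.2 CPM of empty droplets, and lower than in blood EC-like cells in 8 of 8 samples (log2 difference 3.23, adjusted p = 0.0136, exact permutation test), a call lost when classes were reduced to equal cells (adjusted p = 0.0527). Vegfb was low throughout, with its highest mean of 11.8 ± 6.1 CPM in fibroblast-like cells (SD, n = 9) and 2.45 CPM in blood EC-like cells, at the 2.54 CPM of empty droplets. Over all pairs of the 6 classes tested and the 10 members, 100 of 150 differences passed, from 6 of 15 for Angpt1 to 13 of 15 for Tie1 and Nrp1. With 8 or 9 samples the exact test can reach no p below 0.00781 or 0.00391.

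Within the blood EC-like cells, the members marked different sub-clusters, which were again made without them and are described here without a test. An arterial-like sub-cluster of 860 cells, led by S100a4, Fbln5 and Gja5, had the highest mean of Vegfc, at 125 ± 43.6 CPM (SD, n = 8), against 10.8 to 37.8 CPM in the other sub-clusters. Kdr (107 CPM) and Nrp1 (66.7 CPM) were lower there than in all other sub-clusters but the Hbb-led one described last. A capillary-like sub-cluster of 411 cells, led by Ca4, Gpihbp1 and Rgcc, had the highest means of Flt1 (1585 ± 184 CPM, SD, n = 3), Kdr (820 ± 140 CPM) and Nrp1 (602 ± 260 CPM) among the 12 sub-clusters. Flt1 was at 1382, 1629 and 1743 CPM there in sham 1, 2 and 3, the only samples with enough of these cells. Means of most other sub-clusters include ctrl or treat samples, so this ranking compares unlike samples. A venous-like sub-cluster of 639 cells, led by Abi3bp, LOC299282 and Tfpi2, had 6 of 7 listed venous markers and Flt1 at 697 ± 135 CPM (SD, n = 3). A sub-cluster of 328 cells led by Cxcr4, with Dusp2 and Adm among its 10 leading genes, had the highest mean of Angpt2, at 106 ± 33.1 CPM (SD, n = 4), together with low Tek (57.5 CPM). Its Angpt2 was 151 CPM in ctrl day 1, 71.8 CPM in ctrl day 3, 103 CPM in ctrl day 7 and 99.1 CPM in treat day 1. All 4 of these samples were over the values of the whole blood EC-like class in the same sample. A sub-cluster of 444 cells led by Hbb, Tff3 and Krt8, which are genes of red blood cells and epithelium, had the lowest means of Flt1 (113 CPM), Kdr (56.1 CPM) and Nrp1 (36.6 CPM).

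**Figure D2:**
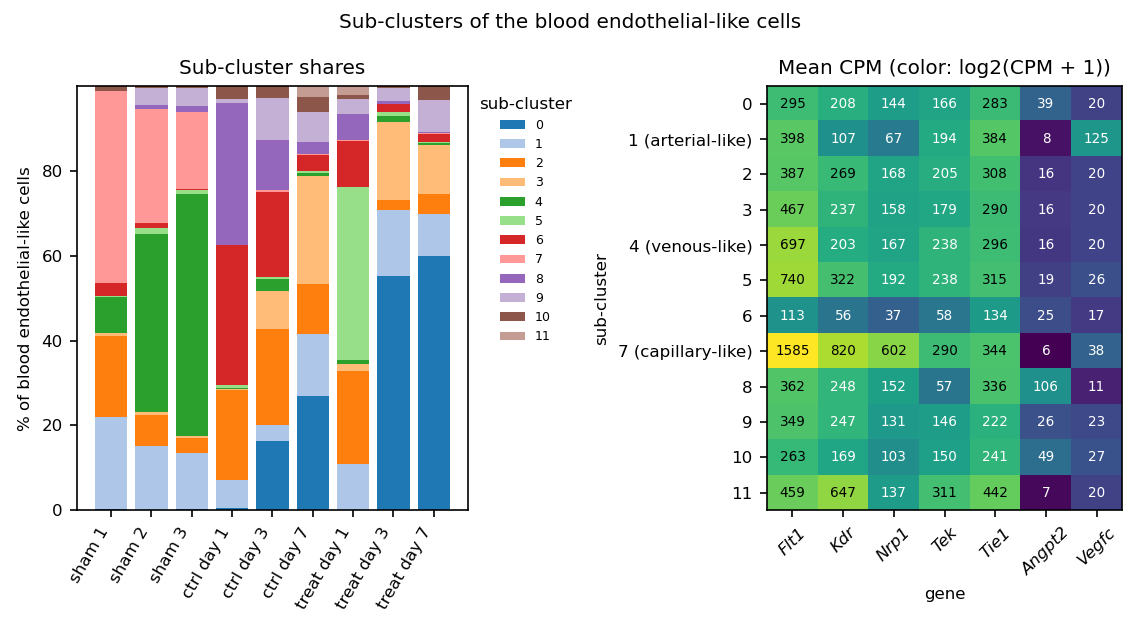
Left, bars give the percentage of the blood EC-like cells of each sample that fell in each of 12 sub-clusters. Right, the mean CPM over samples of 7 genes in each sub-cluster (rows), with color as log2(CPM + 1): sub-cluster 7 (capillary-like) is brightest for Flt1 and made up 18% to 45.3% of the cells in sham samples and at most 0.469% in the others, sub-cluster 8 is brightest for Angpt2 and sub-cluster 1 (arterial-like) for Vegfc.

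These sub-clusters were not spread evenly over the groups. The capillary-like sub-cluster made up 45.3%, 26.8% and 18% of the blood EC-like cells in sham 1, 2 and 3 and at most 0.469% in any ctrl or treat sample. The venous-like sub-cluster of 639 cells made up 8.53%, 41.9% and 57.0% in sham 1, 2 and 3 and at most 2.82% in the others. Over the whole class the venous list summed to 918 to 1412 CPM in sham and 950 to 1223 CPM in ctrl. In treat it summed to 1443 to 1759 CPM. The capillary list summed to 6920 to 19898 CPM in sham, 2719 to 6036 CPM in ctrl and 3431 to 5807 CPM in treat. Samples were not aligned before clustering, so sub-clusters can split by group, and loss of a cell type was not tested. The Cxcr4-led sub-cluster made up 33.3%, 11.7% and 2.88% in ctrl days 1, 3 and 7, 6.15% in treat day 1 and at most 1.51% in the other samples. The Hbb-led sub-cluster made up 33% in ctrl day 1, 20.2% in ctrl day 3 and 11% in treat day 1. A sub-cluster led by Cxcl11, Ccl7 and Madcam1, with genes of leukocyte recruitment, made up 55.2% and 60% in treat days 3 and 7, 16.4% and 26.9% in ctrl days 3 and 7, and under 1% elsewhere, with Flt1 at 295 CPM and Angpt2 at 38.5 CPM. Of the venous list, 2 of 7 markers were detected in it, Selp and Sele.

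The comparison of ctrl with sham asked how the members differed after transplantation with ischemic injury. Fewer cells of a sub-type and less RNA per cell cannot be told apart in such sums. The fits of this comparison also held the treat samples, which share the estimate of spread. Of 34 pairs of member and cell class with enough counts, 2 passed edgeR's quasi-likelihood test at a Benjamini-Hochberg adjusted p under 0.05, both in blood EC-like cells, where 8 members were tested. In that class 1.6% of all 9715 genes tested passed. The background shares were 0.2% in lymphatic EC-like cells, 1.85% in the mural cluster, 0.754% in fibroblast-like, 0.0481% in BEC-like and 5.52% in macrophage-like cells, with 5, 8, 7, 0 and 6 members tested and none passing. Among the members, 5, 3, 1, 0, 0 and 1 had an unadjusted p under 0.05 in these 6 classes in the same order. Over all genes these counts were 1878 of 9715, 1207 of 7017, 1351 of 8895, 2046 of 11677, 465 of 6235 and 2951 of 9981.

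Flt1 fell in ctrl. Its level was 844, 710 and 831 CPM in sham 1, 2 and 3 and 330, 305 and 279 CPM in ctrl days 1, 3 and 7, so every ctrl sample lay under every sham sample. The log2 fold change was -1.32 (SE 0.217, adjusted p = 0.0224, edgeR). The treat samples, at 548, 356 and 349 CPM, lay between both groups. Without the capillary-like sub-cluster, which held 404 sham cells of 411, the sham samples were at 444, 560 and 723 CPM, the log2 fold change was -0.89 and the test was not passed (adjusted p = 0.112, edgeR). Without the venous-like sub-cluster of 639 cells as well, sham was at 420, 429 and 536 CPM and ctrl at 331, 308 and 279 CPM, still without overlap, with a log2 fold change of -0.53 (adjusted p = 0.43, edgeR). In the arterial-like sub-cluster alone it was -0.88 (adjusted p = 0.155, edgeR), with 36 cells in ctrl day 1 and ctrl day 3 left out at 8 cells. The call was also lost without sham 2 (-1.35, adjusted p = 0.0844), sham 3 (-1.25, adjusted p = 0.11) or ctrl day 3 (-1.24, adjusted p = 0.121), and the log2 fold change stayed negative in each of 28 alternatives.

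Angpt2 rose in the same cells. It was at 6.15, 10.8 and 17.9 CPM in sham 1, 2 and 3 and at 84.6, 52.7 and 28.9 CPM in ctrl days 1, 3 and 7. The groups did not overlap, and ctrl day 1 was highest. The log2 fold change was 2.28 (SE 0.467, adjusted p = 0.0438, edgeR), close to the threshold. The 3 libraries of ctrl day 1 were uneven, at 17.6, 177 and 137 CPM, with the first inside the sham range, as was 1 library of ctrl day 7 at 16.7 CPM. The log2 fold change was positive in each of 27 alternatives (1.24 to 2.94), but the adjusted p was over 0.05 in 16 of them. These were without sham 1 (1.99), sham 2 (2.25), sham 3 (2.77), ctrl day 1 (1.72), ctrl day 3 (2.39) or any 1 treat sample (2.28 to 2.29), without the capillary-like sub-cluster (2.16), without it and the venous-like one (2.94, adjusted p = 0.0531), with the EC and mural mixed cluster added (1.75) and 5 others. Markers of mural cells, which carry more Angpt2, were at a summed level of 235 to 475 CPM in sham, 401 to 680 CPM in ctrl and 312 to 437 CPM in treat (13 of 13 listed genes with UMIs). Neutrophil markers summed to 21.5 to 23.5 CPM in sham, 163 to 462 CPM in ctrl and 51.1 to 343 CPM in treat (8 of 9 genes with UMIs), and monocyte markers to 242 to 682, 621 to 1001 and 862 to 1562 CPM (8 of 8). Their part in the Angpt2 result was not tested.

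**Figure D3:**
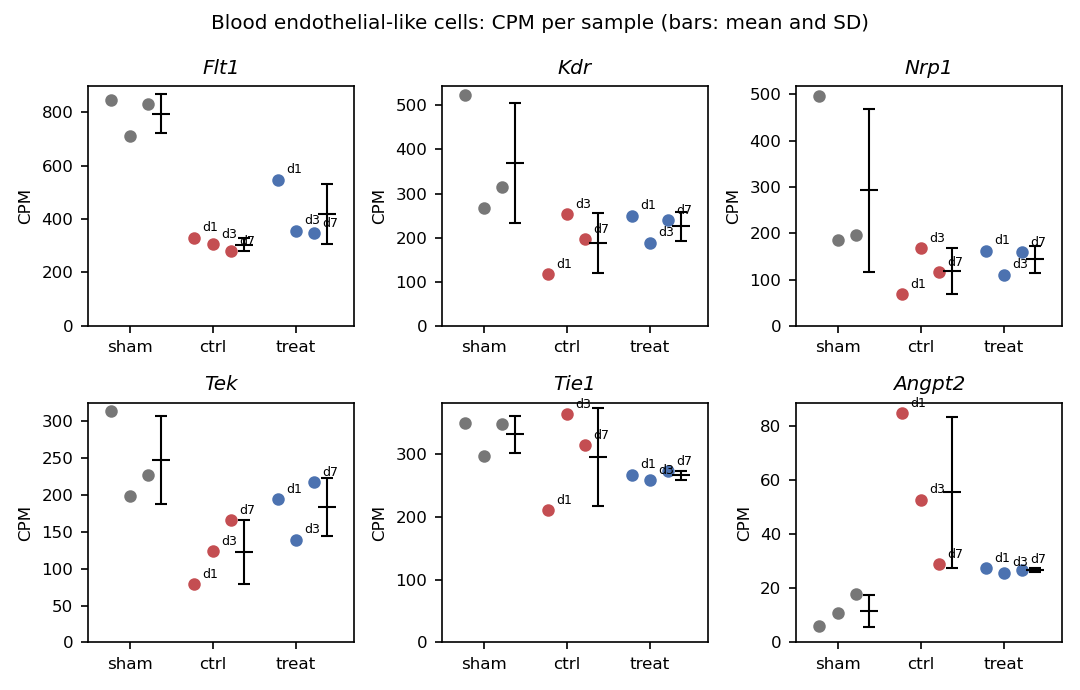
CPM (vertical axis, from 0) of 6 genes in blood EC-like cells, 1 point per sample of the sham, ctrl and treat groups (d1, d3 and d7 are days), with mean and SD as bars. The ctrl points of Flt1 sit between 279 and 330 CPM, under all sham points (710 to 844 CPM), and those of Angpt2 between 28.9 and 84.6 CPM, over all sham points.

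The other receptors of blood EC-like cells had lower means in ctrl without passing the test. Kdr was at 523, 268 and 315 CPM in sham and 118, 253 and 196 CPM in ctrl days 1, 3 and 7, groups that did not overlap (log2 fold change -0.91, adjusted p = 0.11, edgeR). Sham 1, which was highest, also had the largest share of capillary-like cells. Tek was at 314, 199 and 227 CPM in sham and 79.4, 124 and 166 CPM in ctrl, again without overlap (log2 fold change -0.94, adjusted p = 0.0899, edgeR). Nrp1 was at 496, 185 and 196 CPM in sham and 68.8, 168 and 116 CPM in ctrl (log2 fold change -1.25, adjusted p = 0.111, edgeR). Tie1 was at 298 to 350 CPM in sham and 211 to 364 CPM in ctrl, with overlapping groups (log2 fold change -0.13, adjusted p = 0.76, edgeR). With DESeq2 in place of edgeR, Kdr, Tek and Nrp1 passed, with adjusted p of 0.0423, 0.0279 and 0.0328. Each passed in 1 more of 28 alternatives, Kdr (0.0234) and Nrp1 (0.0104) when libraries were not summed per sample and Tek without ctrl day 7 (0.0452). Libraries of a sample are not known to come from separate rats, so the p-values without summing may be too small. In the arterial-like sub-cluster alone the sign turned for Kdr (log2 fold change 0.37, adjusted p = 0.62, edgeR) and Nrp1 (0.21, adjusted p = 0.824, edgeR). That fit had 36 and 159 cells in ctrl days 1 and 7 and left out ctrl day 3. Without the capillary-like sub-cluster, Kdr was at 190, 197 and 259 CPM and Nrp1 at 195, 144 and 164 CPM in sham, ranges that overlap those of ctrl. The summed level of the blood EC marker list in this class was 8665 to 13957 CPM in sham, 5896 to 6548 CPM in ctrl and 7106 to 8040 CPM in treat, and the acinar list (8 of 8 genes with UMIs) was at 75.3 to 966 CPM in sham, 7.79 to 32 CPM in ctrl and 5.33 to 11.2 CPM in treat. Their part in the receptor levels was not tested.

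In lymphatic EC-like cells Kdr, Tie1 and Tek had lower means in ctrl, without a call. Kdr was at 407, 422 and 451 CPM in sham and at 77.2 and 192 CPM in ctrl days 1 and 7 (log2 fold change -1.43, adjusted p = 0.133, edgeR). Tie1 was at 354, 410 and 491 CPM against 148 and 195 CPM (log2 fold change -1.11, adjusted p = 0.151, edgeR), and Tek at 70.8, 86.2 and 65.6 CPM against 17.8 and 39.4 CPM (log2 fold change -1.05, adjusted p = 0.22, edgeR). For each of these 3 receptors both ctrl samples lay under all sham samples. Ctrl day 1 rested on 22 cells. Angpt2 was at 142, 86.2 and 148 CPM in sham and 564 and 210 CPM in ctrl, also without overlap, with a log2 fold change of 1.76 (adjusted p = 0.324, edgeR). Kdr passed with DESeq2 (adjusted p = 0.0294), without the filter on low counts (0.0101) and without treat day 1 (0.043), and Tie1 passed without treat day 1 alone (0.0438). The lymphatic marker list in these cells summed to 73266 to 101203 CPM in sham, 6455 to 29994 CPM in ctrl and 26554 to 77207 CPM in treat (11 of 12 listed genes with UMIs), and its part in the receptor levels was not tested.

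The stromal ligands did not pass the test in ctrl against sham. In the mural cluster, Angpt1 was at 10.7, 10.8 and 23.9 CPM in sham and at 1.45 and 6.79 CPM in ctrl days 1 and 7 (log2 fold change -1.69, adjusted p = 0.316, edgeR), and Pgf was at 29.9, 73.2 and 67.8 CPM against 94.7 and 52.3 CPM. In this cluster the smooth muscle list summed to 29174 to 62773 CPM in sham and 8523 to 8846 CPM in ctrl, while the mural list summed to 2206 to 4823 CPM and 5226 to 6459 CPM, and a different mix of cells and a different level per cell cannot be told apart in these sums. Fibroblast-like Vegfc was at 36.7, 33.6 and 41.3 CPM in sham and 20.2, 29 and 37.1 CPM in ctrl (log2 fold change -0.17, adjusted p = 0.689, edgeR). Nrp1 in fibroblast-like cells was at 130, 70.4 and 85.3 CPM in sham and 20.4, 60.5 and 71.5 CPM in ctrl (log2 fold change -0.70, adjusted p = 0.339, edgeR). The fibroblast list in these cells summed to 51292 to 64606 CPM in sham, 10515 to 50457 CPM in ctrl and 27117 to 58388 CPM in treat (12 of 12 genes with UMIs), and the acinar list to 45.2 to 605, 4.34 to 21.9 and 7.24 to 15.1 CPM (8 of 8). Their part in the fibroblast-like results was not tested. Pgf in macrophage-like cells was low, at 0, 7.85 and 6.53 CPM in sham and 0.453, 0.972 and 1.14 CPM in ctrl (log2 fold change -2.43, adjusted p = 0.0659, edgeR), with the sham range holding the ctrl values. It passed in 4 of 27 alternatives, namely with DESeq2 (adjusted p = 0.0287), when libraries were not summed per sample (0.0406), in the mean of ctrl and treat against sham (0.0423) and without sham 1, the sample at 0 CPM (log2 fold change -2.70, adjusted p = 0.0142). The pass without summing treats libraries as independent, which is not known.

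The comparison of treat with ctrl asked how the members differed when arterial flow had been raised, with day as a block. Of 31 pairs of member and class, 1 passed. The background shares were 0% in blood EC-like, 1.85% in lymphatic EC-like, 0.741% in the mural cluster, 0% in fibroblast-like, 0.0246% in BEC-like and 0% in macrophage-like cells. For the classes at 0, unadjusted p under 0.05 was reached by 1109, 1545 and 641 genes, and DESeq2 called 63, 147 and 9 genes. In lymphatic EC-like cells and the mural cluster DESeq2 called fewer, 4 and 18 genes, where edgeR called 130 and 66.

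Angpt2 in the mural cluster was the pair that passed. It was at 22.9 and 86 CPM in ctrl days 1 and 7 and at 127, 92.6 and 189 CPM in treat days 1, 3 and 7. Each treat sample exceeded the ctrl sample of its day where there was one, and all 3 exceeded both ctrl samples. The log2 fold change was 1.71 (SE 0.321, adjusted p = 0.0374, edgeR). This rested on 2 ctrl samples, since ctrl day 3 had 3 cells of this cluster, and treat day 3 had no partner under the day block, so that 1 residual degree of freedom among samples was left. The alternative without the block also held the sham samples, so 2 things changed in it. There the log2 fold change was 1.30 and the adjusted p was 1 (edgeR). Of 19 alternatives 7 did not pass, among them the 1 without doublet removal (1.21). Leaving out ctrl or treat of day 1 or 7 could not be fitted. By library, ctrl days 1 and 7 ranged from 2.24 to 150 CPM and treat from 88.2 to 213 CPM. The sham samples, at 32.1, 78.6 and 83.7 CPM, overlapped ctrl. The summed level of the lymphatic EC marker list in this cluster was 106 to 149 CPM in ctrl and 196 to 979 CPM in treat (9 of 12 genes with UMIs). The smooth muscle list, which leads this cluster, summed to 8523 to 8846 CPM in ctrl and 15793 to 23007 CPM in treat (12 of 13 genes with UMIs), and the mural list to 5226 to 6459 CPM and 3796 to 6831 CPM. The part of these lists in the Angpt2 difference was not tested.

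**Figure D4:**
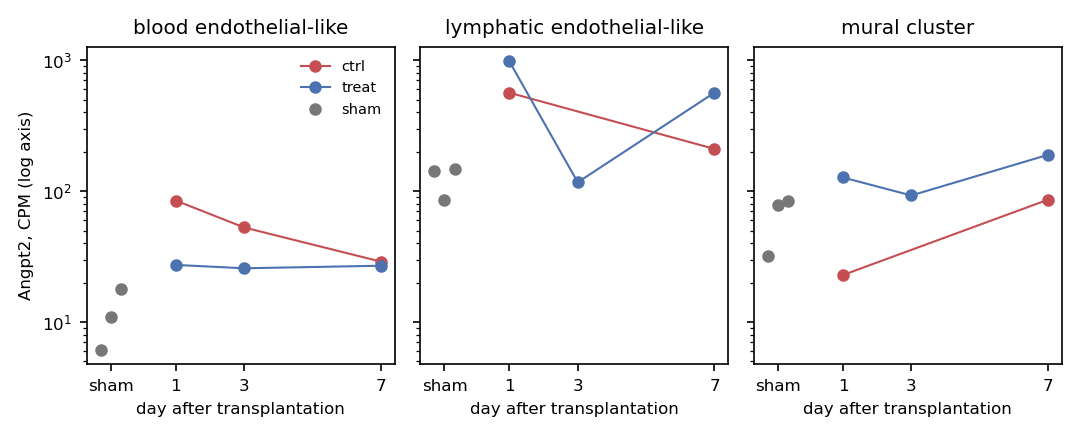
Angpt2 in CPM (log axis) by day post-LT in ctrl and treat, with sham samples at left, in blood EC-like cells, lymphatic EC-like cells and the mural cluster (1 point per sample with at least 20 cells, lines join the days of a group). In blood EC-like cells treat lies under ctrl on each day, whereas in the lymphatic EC-like cells and the mural cluster treat lies over ctrl on both shared days.

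In both kinds of endothelium Angpt2 did not pass the test of treat against ctrl. In blood EC-like cells the treat samples were nearly flat, at 27.3, 25.7 and 26.9 CPM, against 84.6, 52.7 and 28.9 CPM in ctrl (log2 fold change -0.91, adjusted p = 0.392, edgeR). In lymphatic EC-like cells Angpt2 was at 979, 117 and 565 CPM in treat days 1, 3 and 7 and 564 and 210 CPM in ctrl days 1 and 7 (log2 fold change 0.98, adjusted p = 0.0957, edgeR). Ctrl day 1 held 22 of these cells, and ctrl day 3 was left out of this fit as well. The treat day 1 libraries of this class were alike. They had Angpt2 at 873 to 1023 CPM, whereas those of ctrl day 7 ranged from 47.9 to 554 CPM.

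Receptors of blood EC-like cells differed from ctrl in both directions, and none passed the test. Tek was at 194, 139 and 217 CPM in treat days 1, 3 and 7 and at 79.4, 124 and 166 CPM in ctrl, higher on 3 of 3 days (log2 fold change 0.63, adjusted p = 0.273, edgeR). Flt1 was also higher on 3 of 3 days (log2 fold change 0.45, adjusted p = 0.344, edgeR), with 548 CPM in treat day 1 against 330 CPM. Kdr was higher in treat on days 1 and 7 and lower on day 3 (250, 189 and 239 CPM against 118, 253 and 196 CPM), as was Nrp1 (163, 111 and 159 CPM against 68.8, 168 and 116 CPM). Tie1 was at 268, 259 and 273 CPM in treat and 211, 364 and 315 CPM in ctrl, lower on days 3 and 7 (log2 fold change -0.10, adjusted p = 0.87, edgeR). Treat day 1 held 438 of the 477 cells of a sub-cluster led by Cxcl1, Ccl2 and Icam1, which had Flt1 at 740 CPM and Kdr at 322 CPM in that sample. Without the filter on low counts Tek passed, with an adjusted p of 0.0406. In the mural cluster Angpt1 was at 5.73, 9.85 and 15.5 CPM in treat against 1.45 and 6.79 CPM in ctrl (log2 fold change 1.37, adjusted p = 0.379, edgeR), and Pgf at 53.8, 29.6 and 39.6 CPM against 94.7 and 52.3 CPM (log2 fold change -0.67, adjusted p = 0.385, edgeR). Fibroblast-like Nrp1 was at 78.1, 72.3 and 92.4 CPM in treat against 20.4, 60.5 and 71.5 CPM in ctrl, higher on 3 of 3 days (log2 fold change 0.81, adjusted p = 0.331, edgeR).

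Kdr was not limited to endothelium. Beside the dendritic-like class, 2 unnamed clusters carried it at endothelial levels. A cluster of 818 cells led by Tbc1d4, Cytip and Isg15, in which the dendritic markers Batf3, Ccr7, Fscn1 and Ccl22 were detected, had 316 ± 153 CPM of Kdr (SD, n = 4), and a cluster of 694 cells led by Siglech, Cyb561a3 and LOC24906 had 291 ± 96.0 CPM (SD, n = 8). Their samples ranged from 163 to 520 CPM and from 166 to 429 CPM. Flt1 was at 2.0 and 13.1 CPM and Tie1 at 6.65 and 14.7 CPM in the same clusters, against 12.3 and 15.8 CPM in empty droplets. Nrp1 was at 5.47 and 52.3 CPM, and Pgf reached 29.6 CPM in the first of them. An unnamed cluster of 759 cells with 14 of 15 blood EC markers, led by Apold1, Higd1b and Procr and with the mural genes Cox4i2 and Rgs5 among its leading genes, had Flt1 at 327 ± 139 CPM, Kdr at 145 ± 41.7 CPM and Angpt2 at 71.9 ± 16.0 CPM (SD, n = 7). Nrp1 was high in a cluster without endothelial markers among its leading genes, at 166 ± 108 CPM (SD, n = 9) in 4079 unnamed cells led by Mal, LOC681341 and LOC100910669.

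**Figure D5:**
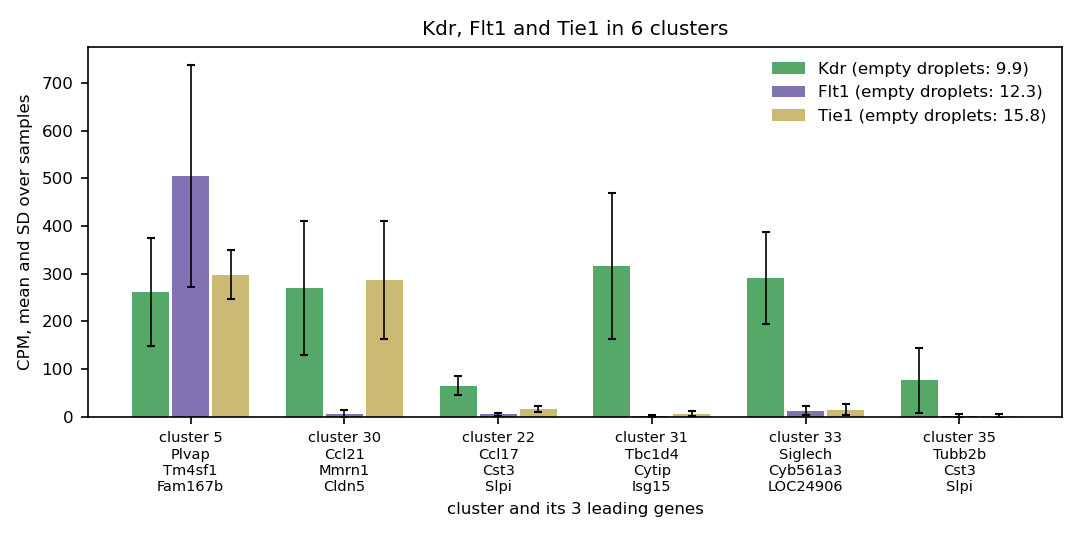
Mean and SD over samples of the CPM of Kdr, Flt1 and Tie1 (bars from 0) in 6 clusters, named by number and 3 leading genes. Cluster 5 is blood EC-like, 30 lymphatic EC-like and 22 dendritic-like. Clusters 31 and 33 have Kdr at 316 and 291 CPM with Flt1 at 2.0 and 13.1 CPM.

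Across the 15 classes, the genes whose mean log2(CPM + 1) was most like that of a member were mostly genes of the same leading class. For Kdr they were Plvap, Cdh5, Rasip1, Chst7 and Arhgap31 (Pearson r from 0.947 to 0.891), of which Plvap and Cdh5 are endothelial surface proteins. For Tek they were Fscn1, Dnm3, Egfl7, Col13a1 and Arhgap31 (0.913 to 0.877). Angpt2 was nearest to Grifin, Igf2, Foxc1, Foxc2 and Galnt18 (0.932 to 0.905), of which Foxc2 is a transcription factor of lymphatic valves. Pgf was nearest to the gap junction gene Gjc1 and to Actg2, Hspb6, Rrad and Nexn, with r from 0.970 to 0.942, and most of these are muscle genes. Vegfc was nearest to Srpx, Dkk2, Adamts10, Tmem178a and Col15a1 (0.880 to 0.853), and Angpt1 to Csf1, Col11a1, Nkd1, Dact1 and Zcchc12 (0.848 to 0.772). Of the latter, Csf1, Col11a1 and Zcchc12 were highest in the mast and basophil-like class, whose Angpt1 level rested on 5 UMIs. These are descriptions over 15 classes that share libraries, among 10623 genes, and carry no p. Such a ranking by class profile favors genes with the same leading class. Plvap, Cdh5, Egfl7, Foxc2, Actg2 and Fscn1 are also on the marker lists used to name cells.

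Other genes of the pathway were counted from a list of 94, of which 92 are among the features. In blood EC-like cells 5 of 72 passed in ctrl against sham, beside 1.6% of all genes. Both that passed among the 24 genes known as VEGF induced went opposite ways: the membrane protease Mmp14 rose (log2 fold change 2.20) and the nuclear receptor Nr4a1 fell by 2.03 on the log2 scale. Klf4 (-1.83), the ligand-processing protease Adamts1 (-1.56) and Cdkn1b (-1.04) fell too, with edgeR adjusted p from 0.0237 to 0.0458 over these 5. Klf4 and Cdkn1b were listed as genes that FOXO1 induces when angiopoietin signaling is low. The median log2 fold change of the 72 was -0.10, against -0.01 over all genes tested. In fibroblast-like cells the ligand Vegfd rose (3.53) and Pik3r1 fell (-1.58), 2 of 82 tested beside 0.754% of all genes, in cells whose fibroblast marker list was lower in each ctrl sample than in any sham sample. In the mural cluster Sod2 rose (2.13) and Nr4a1 fell (-1.28), 2 of 70 beside 1.85%. The neutrophil list there summed to 16.3 to 31.9 CPM in sham and 196 to 361 CPM in ctrl, and its part was not tested. In macrophage-like cells Angptl4 rose (2.23) and Unc5b fell (-1.98), 2 of 61, which is under the 5.52% of all genes that passed there. No gene of the list passed in lymphatic EC-like cells (of 55) or BEC-like cells (of 41). The BEC-like class held 123, 1174 and 1461 cells in sham but 27, 39 and 26 in ctrl days 1, 3 and 7, while 2 unnamed clusters with BEC markers held 309 to 443 cells in sham and 591 to 2640 in ctrl. These 2 clusters made up 13.6%, 4.79% and 2.85% of kept cells in sham 1, 2 and 3. In ctrl days 1, 3 and 7 they made up 18.0%, 7.82% and 8.34%. Sham 1, like ctrl, thus had more cells in them than in the BEC-like class. Other unnamed clusters nearest to the BEC list are not in these counts.

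In treat against ctrl, no pathway gene passed among the 73 tested in blood EC-like cells, the 79 in fibroblast-like cells, the 27 in BEC-like cells or the 59 in macrophage-like cells. Lymphatic EC-like cells had 3 of 55, beside 1.85% of all genes: the adaptor Pxn rose (1.25), Ccn2, which binds VEGF, rose (1.51) and Angptl4 fell by 2.36 on the log2 scale. This fit rested on ctrl days 1 and 7 alone, with 22 cells in ctrl day 1. Like that of the mural cluster, it left few residual degrees of freedom among samples. DESeq2 called 4 genes in this class where edgeR called 130. The lymphatic marker list summed to 6455 to 29994 CPM in ctrl and 26554 to 77207 CPM in treat, and its part was not tested. In the mural cluster 2 of 67 fell, beside 0.741% of all genes that passed, namely the protease Mmp9 (-1.58) and Igfbp3 (-1.91). The medians of the list were 0.17 in blood EC-like cells and 0.13 in lymphatic EC-like cells, against -0.01 and 0.01 over all genes tested. Each of the list genes that passed in any class is named above.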

How the data were processed

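Single-cell RNA-seq of rat bile duct was analysed from the UMI count matrices deposited by the authors, whose headers name Cell Ranger 4 while the submitters' processing notes name Cell Ranger 5.0.1 and Seurat 3.2.0. The genome build is not given in the sources used here, and library 1 of treat day 3 was not used here. The 20 libraries of 9 samples held 14398295 to 109245177 UMIs, and these totals with the number of samples limit the precision.

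Kept barcodes had over 400 and under 6000 genes, with mitochondrial UMIs below 25% and hemoglobin UMIs below 3% (150284 of 161086 with over 400 genes), and cells over percentile 92.5 of a doublet score in their library (share of simulated doublets among neighbours) were removed, leaving 139301 cells. Cells were clustered on 2000 variable genes, 30 principal components and 20 neighbours (leidenalg 0.10.2, resolution 0.9) without the members and their pathway list. Sub-clusters were made in the same way with 20 principal components and resolution 0.5. A marker counted as detected in over 10% of a cluster's cells at over 2 times the level in other cells of the same libraries, and this naming rule was settled after the leading genes were seen and before any test between groups.

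UMIs were summed per sample and class (at least 20 cells). Groups were compared with edgeR 4.0.16 (quasi-likelihood, TMM, Benjamini-Hochberg over all genes of a class) in R 4.3.3. Ctrl against sham was fitted on sham, ctrl and treat samples, which share the estimate of spread. Treat against ctrl was fitted on ctrl and treat samples alone, with day as a block. The block follows the day in the labels. Deviations of ctrl and treat in blood EC-like cells (6676 genes) correlated at 0.679 and 0.606 on days 1 and 7. On day 3 the correlation was 0.0122, so a shared deviation was not seen there, and other classes were not examined. Classes were compared by two-sided exact sign-flip tests on log2(CPM + 1), adjusted over 150 tests. Empty droplets are barcodes of at most 100 UMIs. Alternatives were DESeq2 1.42.0, other scaling, filters, clusterings and left-out samples. In simulated counts for blood EC-like ctrl against sham (9715 genes), 91 of 100 genes changed 4-fold and 14 of 100 changed 2-fold were recovered, with 9 false of 114 calls. The changed genes were drawn from those above a minimum level, so recovery of lower genes was not measured. The counts used edgeR's own estimates of spread and held no set differences by day or sub-cluster.

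The members and lists were chosen with earlier results of these data known. All members are named, with the 5 genes whose class profile is nearest to those of 6 members and the pathway genes that passed. One leading gene of the Cxcr4-led sub-cluster is not reported here.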

Additional observations from a re-analysis of the deposited data

Results flagged for a closer look

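The treat minus ctrl values of Angpt2 had opposite signs in different classes, but only that of the mural cluster passed edgeR's test (adjusted p = 0.0374, against 0.0957 in lymphatic EC-like and 0.392 in blood EC-like cells). On the log2(CPM + 1) scale, treat minus ctrl of the same day averaged -0.90 over 3 days in blood EC-like cells, 1.11 over 2 days in lymphatic EC-like cells and 1.78 over 2 days in the mural cluster. Blood EC-like cells thus differed by -2.01 from lymphatic EC-like cells and by -2.68 from the mural cluster. The rule for listing a gene here asked for the same sign on all shared days within a class and the other sign in another class. The rule also asked for an unadjusted p under 0.05 in edgeR's test in either class. These signs are therefore no separate result. Blood EC-like cells were nearly equal on day 7 (26.9 CPM in treat and 28.9 CPM in ctrl), and the difference between classes was not tested.

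Members are listed here for unnamed clusters only where each sample exceeded the highest level of the member in empty droplets. The mean also had to pass a set minimum. Lying over empty droplets was thus fixed by the rule and is no separate result. Nrp1 was at 166 CPM (72.4 to 420 CPM over 9 samples) in the cluster led by Mal, LOC681341 and LOC100910669, in which 3 of 8 monocyte markers were detected. Kdr was at 316 CPM (163 to 520 CPM over 4 samples) in the cluster led by Tbc1d4, Cytip and Isg15, and at 291 CPM (166 to 429 CPM over 8 samples) in the cluster led by Siglech, Cyb561a3 and LOC24906.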

How the results depend on the processing

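The count of members that passed in ctrl against sham was 2. It was 7 with DESeq2, 4 with each library as its own sample, 1 with free RNA subtracted, with sham and ctrl alone or with the EC and mural cluster added, and 0 for treat against sham, for the arterial-like sub-cluster alone or without the capillary-like one, alone or with the venous-like one, and it ranged from 0 to 3 when 1 sample was left out. In treat against ctrl it was 1. It was 2 without the filter on low counts, and 0 with DESeq2, library size scaling, no doublet removal, no hemoglobin limit, free RNA subtracted, each library as its own sample or no replicate block (a fit that also held the sham samples). It ranged from 0 to 1 when 1 sample was left out. Without ctrl or treat of day 1 or 7 the mural cluster could not be fitted, so Angpt2 there could not be counted. In the arterial-like sub-cluster, where ctrl day 3 had too few cells, the log2 fold changes of Kdr and Nrp1 in ctrl against sham reversed to 0.37 and 0.21, neither passing. The cause was not tested. The 100 differences between classes that passed kept their sign under each alternative and 80 to 100 of them still passed, while 81 to 108 of all 150 passed. The sub-cluster, mixed-cluster and left-out-library alternatives were chosen after seeing the data. Counts with each library as its own sample treat libraries as independent, which is not known. DESeq2 called 518 genes of blood EC-like cells in ctrl against sham, where edgeR called 155.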
